A study of Mus musculus with 2 samples.

Results

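Interferon-induced genes were followed through the cell types of the mouse kidney 14 days after ischemia. The list holds 39 genes taken by symbol, of which 37 were matched among the 32285 genes of the count matrices, while *Mx1* and *Mx2* were not analysed here. The members fall into 9 roles, which are the IFIT family, viperin with its neighbour, the ISG15 system, the OAS enzymes, transcription factors, nucleic acid sensors, other type I effectors, interferon-inducible GTPases, and chemokines with antigen processing genes.

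Interferons are proteins that cells release on infection or tissue damage. Type I interferons act on a receptor that most cells carry, whereas interferon gamma comes mainly from T and NK cells and acts on a receptor of its own, and both signal through JAK kinases and STAT transcription factors to switch on a shared programme of antiviral, GTPase, chemokine and antigen processing genes. In the kidney, endothelium, tubular epithelium and infiltrating leukocytes can all respond to them.

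Single-cell RNA sequencing was carried out on 1 kidney from 1 mouse of each genotype, after 25 minutes of unilateral renal ischemia in mice 8-10 weeks old. The control was a Cre- littermate, and the other mouse carried *Cdh5-CreERT2* with floxed alleles of *Phd1*, *Phd2* and *Phd3* (the genes *Egln2*, *Egln1* and *Egln3*), a group named PHDTiEC; the *Cdh5* promoter drives the inducible Cre in endothelial cells. Both mice received 4 injections of 3 mg tamoxifen starting on day 1 after ischemia. Because each genotype is 1 library from 1 mouse, no test between genotypes was possible, and a difference between genotypes cannot be told apart from a difference between those mice or libraries. Below, paired values give the Cre- library first and the library labelled PHDTiEC second.

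The matrices held 8548 and 9309 barcodes that passed the filters on depth, genes and mitochondrial share, with medians of 7500 and 7898 unique molecular identifiers (UMIs, counts of captured transcripts). The libraries shared 28 of the kept barcodes, where 11.7 would be met by random draws from the kit's list. Free RNA, read from tubular and neutrophil markers in lymphoid cells, was estimated at 6.84% and 5.36% of UMIs. The cells fell into 18 classes named by marker genes, from clusters made without the interferon genes, and 7 clusters were left with a number only. Levels are given as CPM, the UMIs of a gene per 1000000 UMIs of a class, with exact Poisson 95% intervals; ratios are log2 CPM of the library labelled PHDTiEC over Cre-, with the Clopper-Pearson interval of the split of the counts. All intervals cover counting error only. UMI levels are not scaled to transcript length, so a gene is compared between classes and not with another gene.

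Of the floxed genes, *Egln1* and *Egln3* were higher in the endothelial-like cells of the library labelled PHDTiEC, at 67.6 and 202 CPM and at 25.9 and 160 CPM. *Egln2* stood at 44.1 and 39.3 CPM (log2 -0.17, -0.52 to 0.19), an interval that includes 0. The kit reads the 3′ ends of transcripts, which can lie outside the floxed exons, so these counts do not check the labels.

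Promoter sequences are shown for 4 members that mark different cells below, namely viperin, an IFIT gene, the ISG15 modifier and a chemokine. They come from RefSeq on GRCm38.p6 and run from 250 bases before to 50 after the transcription start, 5′ to 3′ on the gene's strand. The windows are chr12:26456403-26456702 on the minus strand for *Rsad2*, chr19:34583279-34583578 on the plus strand for *Ifit3*, chr4:156200769-156201068 on the minus strand for *Isg15*, and chr5:92328030-92328329 on the minus strand for *Cxcl9*. Capitals mark each match of GAAANNGAAA on either strand, a spelling of the pair of GAAA repeats in the interferon-stimulated response element.
Rsad2: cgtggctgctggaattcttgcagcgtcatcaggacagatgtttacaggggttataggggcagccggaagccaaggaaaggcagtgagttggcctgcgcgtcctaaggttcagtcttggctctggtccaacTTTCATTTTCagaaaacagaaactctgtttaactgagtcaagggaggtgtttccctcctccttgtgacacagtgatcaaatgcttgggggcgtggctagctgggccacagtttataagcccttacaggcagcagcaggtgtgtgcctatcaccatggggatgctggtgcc
Ifit3: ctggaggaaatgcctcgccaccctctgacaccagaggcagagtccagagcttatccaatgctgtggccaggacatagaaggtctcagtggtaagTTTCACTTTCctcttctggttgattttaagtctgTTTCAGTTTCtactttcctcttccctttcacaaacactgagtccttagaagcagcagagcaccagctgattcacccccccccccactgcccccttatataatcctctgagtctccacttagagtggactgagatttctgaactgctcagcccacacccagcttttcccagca
Isg15: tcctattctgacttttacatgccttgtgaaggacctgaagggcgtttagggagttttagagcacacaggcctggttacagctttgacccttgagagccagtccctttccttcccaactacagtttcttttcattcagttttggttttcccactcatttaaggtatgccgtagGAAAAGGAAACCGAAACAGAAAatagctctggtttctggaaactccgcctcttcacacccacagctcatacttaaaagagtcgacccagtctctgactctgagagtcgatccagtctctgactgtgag
Cxcl9: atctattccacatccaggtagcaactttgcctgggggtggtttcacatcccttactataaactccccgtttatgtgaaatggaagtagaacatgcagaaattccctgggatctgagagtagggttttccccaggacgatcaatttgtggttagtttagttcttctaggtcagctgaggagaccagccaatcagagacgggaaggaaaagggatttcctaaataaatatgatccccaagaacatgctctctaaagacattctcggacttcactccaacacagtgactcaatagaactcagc

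*Rsad2* held 1 match, *Ifit3* held 2, *Isg15* held 3 that overlap each other, and *Cxcl9* held 0. A window was found for 31 of the 39 listed genes, in 35 windows when alternative starts are counted. GAAANNGAAA occurred in 20 of these 35 (57.1%) and in 1131 of all 32851 promoter windows of the same length (3.44%). The letters TTCNNNGAA, a spelling of the gamma-activated site, occurred in 8 of 35 (22.9%) and in 8.30% of all windows. These matches are a description of letters and were not tested as sites.

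The members did not share 1 cell type. Of the 37, 13 (Cre-) and 17 (labelled PHDTiEC) were highest in endothelial-like cells, 7 and 4 in dendritic-like cells, 6 and 5 in neutrophil-like cells, 4 and 2 in thin limb-like cells and 3 and 4 in monocyte-like cells. The same class held the highest level in both libraries for 24 members. Among the named classes, PT-like (proximal tubule) cells had the lowest summed level of the whole list at 308 and 344 CPM, and dendritic-like and endothelial-like cells the highest, at 2919 and 2687 CPM and at 2562 and 3450 CPM.

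**Figure D1:**
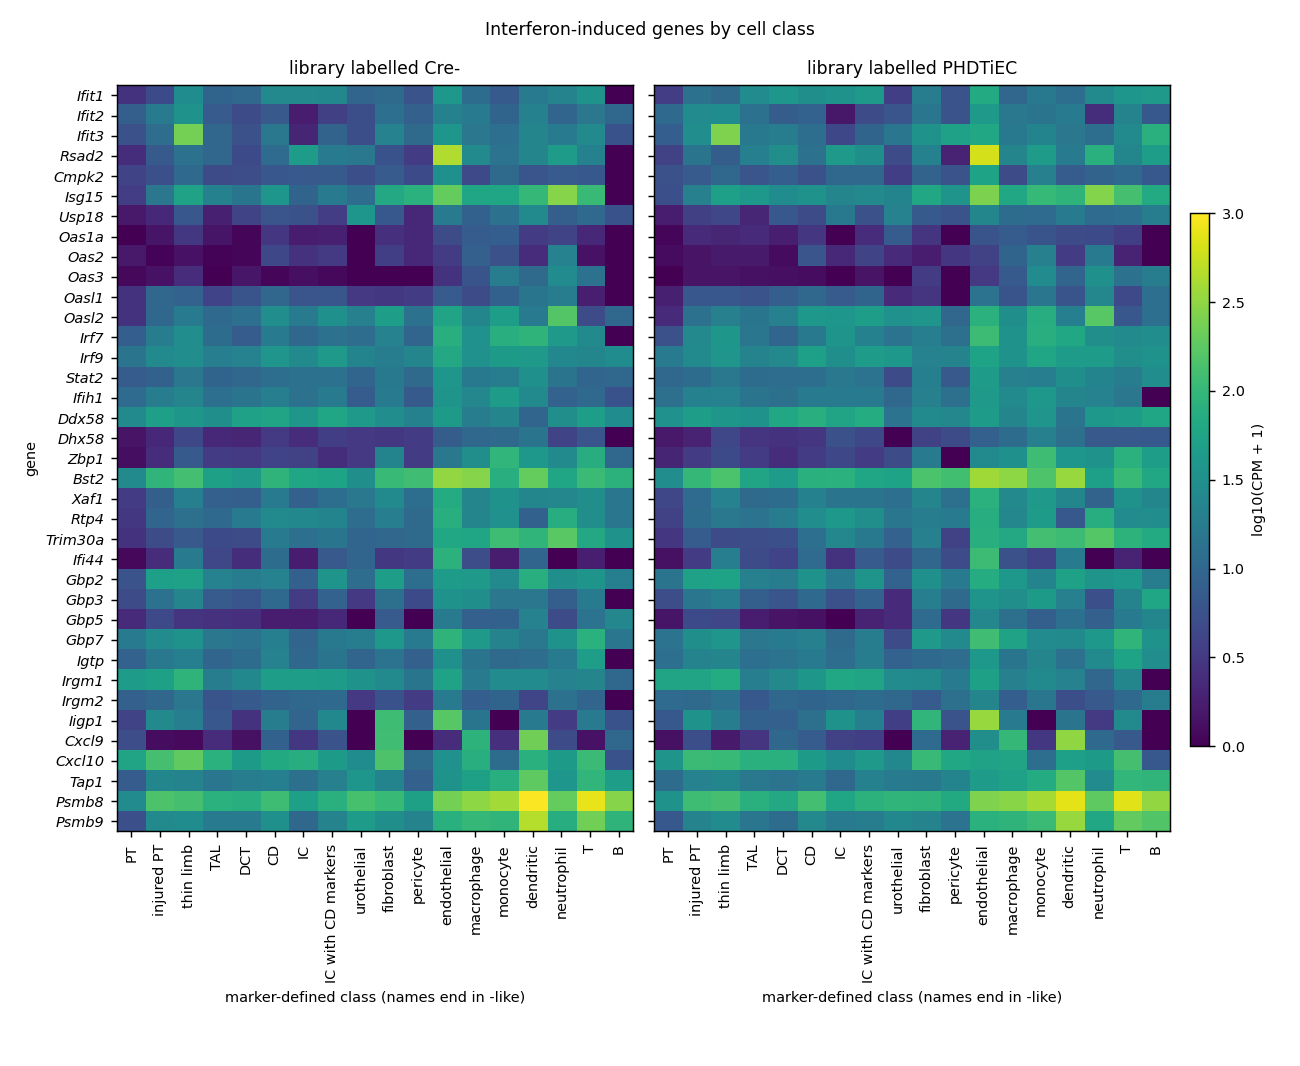
Level of 37 interferon-induced genes (rows, by role) in 18 marker-defined classes (columns) of the Cre- library and the library labelled PHDTiEC, as log10 of CPM plus 1 in colour. *Rsad2* and *Ifi44* peak in endothelial-like cells, *Ifit3* in thin limb-like cells and *Psmb8* in dendritic-like and T-like cells of both libraries.

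Of the 37 members, *Rsad2* had the largest ratio of its highest class to the next in both libraries. *Rsad2* (viperin, ENSMUSG00000020641, chr12:26442746-26456452) makes a nucleotide that stops viral polymerases. In endothelial-like cells it stood at 440 CPM (416 to 465) and 634 CPM (609 to 660), from 1257 and 2402 UMIs. The next class was IC-like (intercalated) cells at 44.4 CPM in the Cre- library and neutrophil-like cells at 78.9 CPM in the library labelled PHDTiEC, so the endothelial-like level was 9.91 and 8.03 times that of the next class. A *Rsad2* UMI was seen in 66.3% and 73.0% of endothelial-like cells, and in 2.05% and 3.60% of PT-like cells, which serve as the background of free RNA. The median depth was 5282 and 5610 UMIs in endothelial-like and 18779 and 17910 UMIs in PT-like cells. With each cell thinned to 2000 UMIs these shares were 48.3% and 58.4% against 0% and 0%. Endothelial-like cells were the only named class with *Rsad2* UMIs in most of their cells. *Cmpk2*, the mitochondrial nucleotide kinase gene that lies beside *Rsad2*, was also highest there, at 30.8 and 53.3 CPM.

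*Ifit1*, *Ifit2* and *Ifit3* encode proteins that bind viral RNA or hold back its translation. *Ifit3* (ENSMUSG00000074896, chr19:34583531-34588731) was highest in thin limb-like cells, at 234 CPM (221 to 248) and 262 CPM (247 to 277), whereas endothelial-like cells had 37.1 and 60.7 CPM. It was seen in 74.4% and 73.4% of thin limb-like cells, and in 31.5% and 29.7% after thinning, against 7.85% and 10.03% of PT-like cells, or 0.347% and 1.29% after thinning. Its near-identical neighbour *Ifit3b* was also high in thin limb-like cells, at 121 and 131 CPM, and reads of these copies may be split between them. The name of the thin limb-like class is uncertain. The thin limb list scored highest for it (1.95, 3 of 5 markers seen), with the injured PT list close (1.69, 5 of 5). *Slc14a2*, the leading gene of the class, is the paper's marker of the inner medullary collecting duct. *Rsad2* was highest in endothelial-like cells and *Ifit3* in thin limb-like cells under each of the alternative settings. *Ifit1* reached 38.5 and 67.3 CPM in endothelial-like cells, followed by T-like cells at 33.1 CPM in the Cre- library and by IC-like cells with CD (collecting duct) markers at 41.5 CPM in the library labelled PHDTiEC. *Ifit2* stood at 32.6 and 27.7 CPM in thin limb-like cells and at 19.6 and 40.4 CPM in endothelial-like cells.

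*Isg15* and most OAS genes were highest in neutrophil-like cells. *Isg15* (ENSMUSG00000035692, chr4:156199424-156200818), a ubiquitin-like protein that is joined to others, stood at 281 CPM (253 to 312) and 273 CPM (246 to 302) there. Endothelial-like cells had 193 CPM (178 to 210) and 257 CPM (242 to 274), so the intervals of these classes overlapped in the library labelled PHDTiEC only. T-like cells came next with 106 and 130 CPM. *Usp18*, which takes ISG15 off proteins and restrains the type I receptor, had 16.1 and 22.95 CPM in endothelial-like cells and 36.3 and 20.5 CPM in the few urothelial-like cells. OAS enzymes answer to double-stranded RNA by making oligoadenylates that activate RNase L. *Oasl2* had 158 and 167 CPM in neutrophil-like cells and 55.0 and 81.0 CPM in endothelial-like cells. *Oas3* had 27.3 and 31.0 CPM and *Oasl1* 17.1 and 23.6 CPM in neutrophil-like cells, *Oas2* had 20.3 and 16.2 CPM, and *Oas1a*, whose reads may be shared with the close copy *Oas1g*, was highest at 6.81 CPM in monocyte-like cells and 6.48 CPM in macrophage-like cells.

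**Figure D2:**
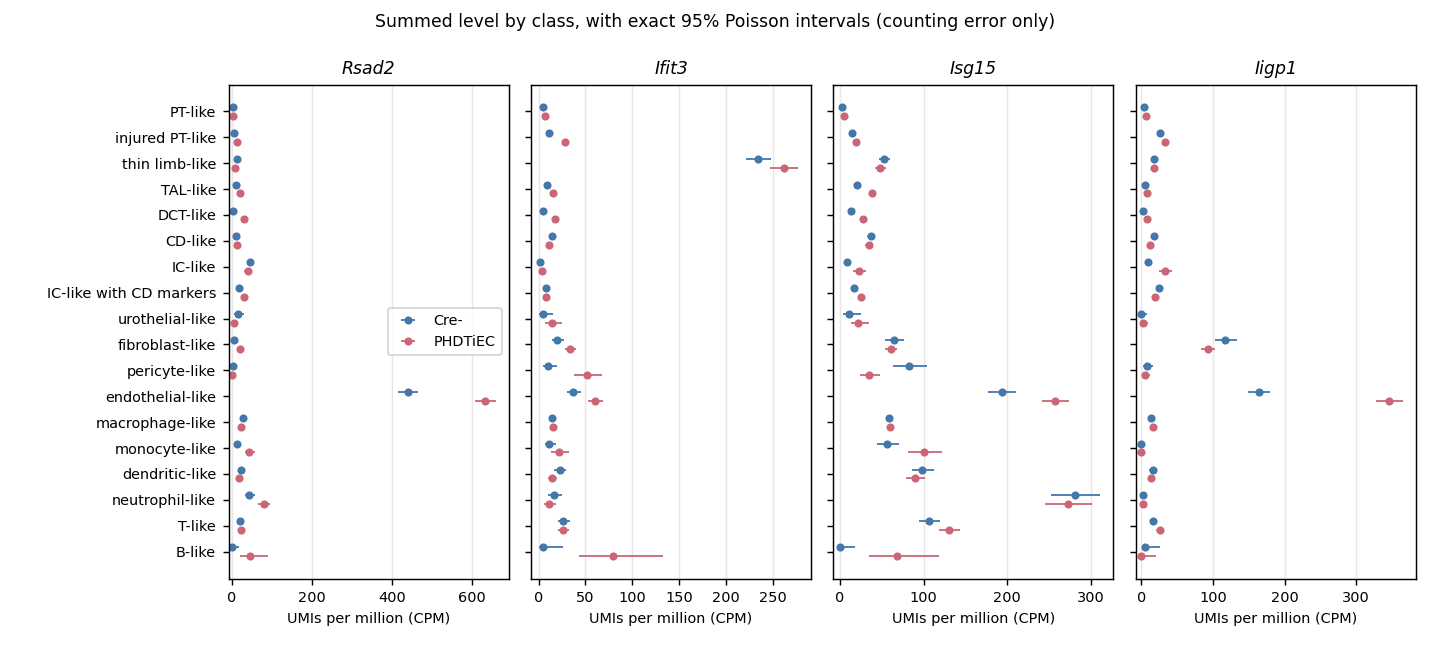
CPM of *Rsad2*, *Ifit3*, *Isg15* and *Iigp1* in each of 18 classes, with 1 point per library and exact Poisson 95% intervals. *Rsad2* and *Iigp1* are highest in endothelial-like cells, *Ifit3* in thin limb-like cells and *Isg15* in neutrophil-like cells of both libraries.

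The transcription factors of the response were spread over endothelial and myeloid cells. *Irf7*, which amplifies type I interferon production, had 88.4 and 60.0 CPM in dendritic-like cells, 77.1 and 114 CPM in endothelial-like cells and 74.9 and 76.0 CPM in monocyte-like cells. *Irf9* and *Stat2*, which act together in a complex that binds the response element, had 64.4 and 53.8 CPM and 37.1 and 44.6 CPM in endothelial-like cells. *Irf9* was next in monocyte-like cells at 41.6 and 58.8 CPM, and which of these classes was first differed between the libraries.

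Sensors of foreign or misplaced nucleic acid differed in where they were found. *Ddx58*, which encodes RIG-I, was highest at 58.3 and 71.8 CPM in IC-like cells with CD markers and 55.0 and 77.8 CPM in CD-like cells. DCT-like cells followed closely at 50.6 and 61.7 CPM, and the median over the classes was 33.9 and 38.2 CPM. The IC-like cells with CD markers had median depths of 47924 and 52240 UMIs. *Ifih1* (MDA5) had 43.1 and 38.5 CPM in monocyte-like cells and 35.0 and 40.1 CPM in endothelial-like cells. *Zbp1*, a sensor of Z-form nucleic acid, had 93.8 and 116 CPM in monocyte-like cells and 73.0 and 80.5 CPM in T-like cells, and *Dhx58* (LGP2) 13.1 and 11.8 CPM in dendritic-like cells.

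Among the other effectors, *Bst2* (tetherin, which holds budding virus at the membrane) had 324 and 369 CPM in endothelial-like cells and 288 and 309 CPM in macrophage-like cells. *Ifi44* was highest in endothelial-like cells, with 83.7 and 112 CPM against 15.8 and 17.96 CPM in thin limb-like cells, the next class. It had 0 UMIs in neutrophil-like cells of both libraries. Endothelial-like cells held 239 of its 786 and 426 of its 1113 UMIs, so most lay in other cells. *Rtp4* did not separate endothelial-like from neutrophil-like cells, at 74.3 and 72.6 CPM against 73.2 and 72.3 CPM. *Xaf1* had 69.4 and 81.0 CPM in endothelial-like cells, and *Trim30a* 167 and 161 CPM in neutrophil-like cells.

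GTPases of the GBP and IRG families attack the vacuoles in which pathogens live and answer to interferon gamma as well as to type I interferon. *Iigp1* (ENSMUSG00000054072) was highest in endothelial-like cells, at 164 CPM (149 to 179) and 346 CPM (327 to 365), followed by fibroblast-like cells at 117 and 92.8 CPM, with 0 UMIs in monocyte-like cells. *Gbp7* had 88.6 and 118 CPM in endothelial-like cells and 82.3 and 90.9 CPM in T-like cells. *Gbp2* had 74.8 and 51.6 CPM in dendritic-like cells and 44.1 and 70.4 CPM in endothelial-like cells. *Irgm1* was highest in thin limb-like cells at 89.1 and 68.3 CPM. *Gbp3* (33.6 and 35.1 CPM), *Gbp5* (15.8 and 23.7 CPM) and *Irgm2* (15.8 and 21.9 CPM) are given for endothelial-like cells and *Igtp* for T-like cells (46.8 and 54.4 CPM). The GBP and IRG genes have close copies, and *Igtp* (chr11:58199556-58207591) and *Irgm2* (chr11:58199618-58222782) overlap on the same strand, so the split of reads among them is uncertain.

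The chemokines *Cxcl9* and *Cxcl10*, which draw in activated T cells, had different sources. *Cxcl9* was highest in dendritic-like cells at 223 and 315 CPM, with 87.02 and 98.3 CPM in macrophage-like cells. *Cxcl10* was found in epithelium and stroma as well, at 182 and 103 CPM in thin limb-like, 144 and 106 CPM in fibroblast-like, 128 and 109 CPM in injured PT-like and 109 and 129 CPM in T-like cells. Some of these levels rest in part on 1 cell. The top *Cxcl10* cell of the Cre- library was thin limb-like, with 241 UMIs, and scored as a doublet. In the library labelled PHDTiEC it was fibroblast-like, with 213 UMIs. The immunoproteasome subunits *Psmb8* and *Psmb9* and the peptide transporter *Tap1*, which prepare peptides for MHC class I, were highest in dendritic-like cells of both libraries. *Psmb8* stood there at 968 and 744 CPM, against 799 and 729 CPM in T-like cells. *Psmb9* had 461 and 340 CPM and *Tap1* 179 and 157 CPM in dendritic-like cells.

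The number of cells with a strong response was counted with 10 measured genes of the type I core (*Ifit1*, *Ifit2*, *Ifit3*, *Rsad2*, *Cmpk2*, *Isg15*, *Usp18*, *Oas3*, *Oasl1* and *Ifi44*). A cell carried the core when these genes held at least 10 of every 10000 of its UMIs and at least 3 of them had a UMI. This was met by 229 of 8548 cells (2.68%, 2.35 to 3.04%) and 331 of 9309 cells (3.56%, 3.19 to 3.95%). Those cells held 2.07% and 2.70% of all UMIs but 6663 of 17085 and 11142 of 24459 (45.6%) of the core UMIs. Thus most core UMIs lay in cells below the limit. The class is a range cut from a score: 147 and 192 cells lay between 5 and 10 per 10000, and 103 and 138 between 10 and 20. The median carrying cell had 5 of the core genes, and 7 and 4 cells had all 10. Of the carrying cells 13 (5.68%) and 23 (6.95%) scored as doublets, against 6.84% and 7.44% of all cells. The share marked over all cells was fixed in advance from the number of barcodes.

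Endothelial-like cells were the largest group of carriers. They supplied 31.4% and 39.3% of carrying cells from 3.69% and 4.73% of all cells, with 72 of 315 (22.9%, 18.3 to 27.9%) and 130 of 440 (29.5%, 25.3 to 34.0%) of them carrying the core. After thinning these shares were 12.9% and 19.7%, and without *Rsad2* among the core genes 8.89% and 13.4%. Macrophage-like cells were next in number, with 61 of 2434 (2.51%, 1.92 to 3.21%) and 80 of 2646 (3.02%, 2.40 to 3.75%). Among T-like cells 14 (2.33%) and 31 (4.25%) carried the core, and among neutrophil-like cells 20 (3.17%) and 15 (2.26%). The order of the neutrophil-like shares turned to 2.91% and 4.67% among the 206 and 214 cells deep enough to be thinned.

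Thin limb-like cells had 10 (4.65%) and 17 (8.37%) carriers, but 2.35% and 1.49% after thinning, so no order between the libraries is read from them. Few other tubular cells passed: 6 and 3 CD-like, 3 and 4 TAL-like (thick ascending limb), 1 and 3 DCT-like (distal convoluted tubule), 2 and 5 injured PT-like, 1 and 1 PT-like, 1 and 2 IC-like and 2 and 2 IC-like with CD markers. No urothelial-like cell did, and 0 of 147 pericyte-like cells in the library labelled PHDTiEC, which allows a share of up to 2.04%.

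**Figure D3:**
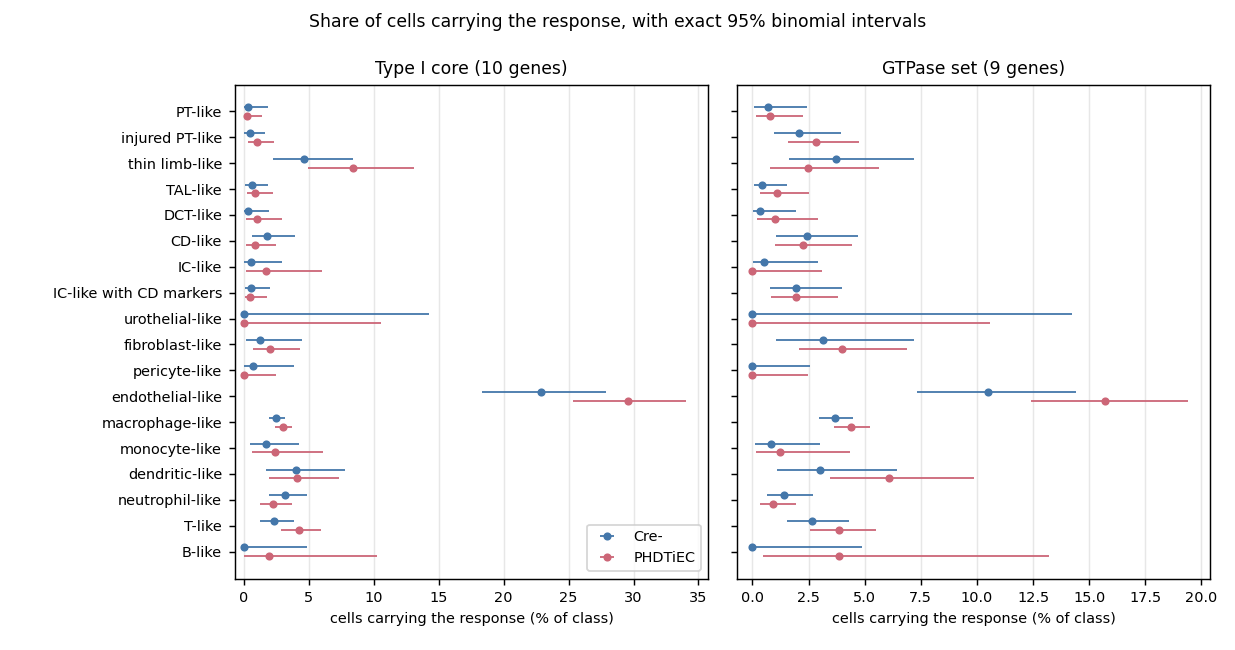
Percent of the cells of each class that carried the type I core or the GTPase set, with 1 point per library and exact binomial 95% intervals. Endothelial-like cells stand at 22.9% and 29.5% for the core and at 10.5% and 15.7% for the GTPase set, above the other classes.

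The same rule applied to 9 genes of the GTPase set (the 8 GTPases with *Cxcl9*) was met by 209 cells (2.45%, 2.13 to 2.79%) and 309 cells (3.32%, 2.96 to 3.70%). Macrophage-like cells supplied 89 and 116 of these (3.66% and 4.38% of the class), and endothelial-like cells 33 and 69 (10.5% and 15.7%). T-like cells supplied 16 and 28 (2.67% and 3.84%), and dendritic-like cells 6 and 15 (3.02% and 6.10%). Both sets were carried by 70 and 105 cells, which are 30.6% and 31.7% of the core's carriers and 33.5% and 34.0% of the GTPase carriers. In endothelial-like cells the overlap was 20 and 50 cells, or 60.6% and 72.5% of the GTPase carriers of that class.

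Members outside the core were also higher in carrying macrophage-like cells. Of the 27 such members, 25 and 26 were at least 2-fold higher in carrying than in other macrophage-like cells, where 18.1% and 15.6% of all genes with enough UMIs were. Their median log2 ratio was 2.98 and 2.92, against 0.05 and 0.01 for all genes. The cells were chosen by the core genes, and no test was made. *Irf7* stood at 523 and 572 CPM in carriers against 22.3 and 21.1 CPM in the rest. *Zbp1* stood at 303 and 309 CPM against 24.03 and 24.4 CPM, and *Iigp1* at 243 and 190 CPM against 9.43 and 12.7 CPM. *Cxcl10* had 1919 and 601 CPM against 38.4 and 43.6 CPM. *Psmb8* differed least of those named, with 568 and 597 CPM against 302 and 289 CPM.

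In endothelial-like cells the contrast between carrying and other cells was smaller. There 13 of 23 and 15 of 25 non-core members with enough UMIs were at least 2-fold higher in carriers, where 3.57% and 1.68% of all genes were, with medians of 1.04 and 1.06 on the log2 scale. *Iigp1* stood at 323 and 605 CPM in carriers against 124 and 205 CPM in the rest, and *Irf7* at 133 and 179 CPM against 63.0 and 78.9 CPM. *Rsad2* itself was still at 254 and 334 CPM in endothelial-like cells below the limit, against 7.49 and 7.34 CPM in macrophage-like cells below it. Macrophage markers were not higher in endothelial-like carriers, with all 9 markers summing to 440 and 456 CPM against 636 and 903 CPM in the other endothelial-like cells. TAL markers (5 of 5 seen) summed to 874 and 30.8 CPM in carriers and 640 and 154 CPM in the rest. Erythroid markers summed to 0 and 1978 CPM in carriers and 653 and 302 CPM in the rest. Plasmacytoid dendritic markers, of which 1 and 2 of 5 were seen in carriers, summed to 1032 and 963 CPM against 649 and 791 CPM. The part of these markers in the result was not tested.

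T-like carriers were compared with the other T-like cells in the same way. Of 22 non-core members with enough UMIs, 20 and 19 were at least 2-fold higher in carriers, where 33.7% and 14.4% of all genes were. The Cre- library had only 14 such cells. *Cxcl10* stood at 2661 and 1351 CPM against 48.3 and 74.4 CPM (log2 5.78, 5.43 to 6.14, and 4.18, 3.89 to 4.47). These intervals overlapped those of macrophage-like carriers (5.51 to 5.78 and 3.61 to 3.96). *Isg15*, a core gene by which the carriers were chosen, stood at 1548 and 1660 CPM against 72.3 and 62.3 CPM.

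Of genes in no list, the 10 highest in macrophage-like carriers relative to the rest were *Ifi208*, *Slfn1*, *Ms4a4c*, *Ifi206*, *Ifi213*, *Ifi205*, *Mmp13*, *Gm4951*, *Ifi211* and *Ifi209*. 6 of them belong to the Ifi200 family of DNA-binding proteins, whose members are close copies with uncertain read assignment. *Ms4a4c* had 269 and 586 CPM in carriers against 22.2 and 21.8 CPM. *Mmp13*, a collagenase, stood apart, because 65.7% of its UMIs in carriers came from 1 cell.

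Between the libraries, the summed list over all kept cells was 1013 CPM in the Cre- library and 1102 CPM in the library labelled PHDTiEC (log2 0.12, 0.11 to 0.13). The core sum was 144 and 184 CPM (log2 0.35, 0.33 to 0.38) and the GTPase set 183 and 210 CPM (log2 0.20, 0.18 to 0.23). No single member differed by 2-fold or more in either direction over all kept cells, where 1.26% of genes were at least 2-fold higher and 1.45% at least 2-fold lower. Of the 37 members 33 had a log2 ratio above 0, with a median of 0.23, against 57.1% of all genes and a median of 0.03. *Ifit1* had the largest ratio, from 14.6 to 22.4 CPM (log2 0.62), and *Cxcl10*, *Psmb9*, *Psmb8* and *Tap1* were the members below 0, at log2 -0.21, -0.20, -0.08 and -0.02.

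Endothelial-like cells, the cells that the Cre targets, had the members higher in the library labelled PHDTiEC. Their sum was 2562 and 3450 CPM (log2 0.43, 0.39 to 0.47), the core 868 and 1263 CPM (log2 0.54, 0.47 to 0.61), and the GTPase set 447 and 733 CPM (log2 0.71, 0.62 to 0.81). *Iigp1* alone gave 164 and 346 CPM of the GTPase set. The log2 ratio of the sum of all members was 0.28 without barcodes that scored as doublets and 0.20 without cells that carried the core. A ratio of that sum like the 0.43 here was found in DCT-like cells (463 and 629 CPM, log2 0.44) and IC-like cells (552 and 745 CPM, log2 0.43). In dendritic-like, fibroblast-like, thin limb-like and urothelial-like cells it was below 0. In endothelial-like cells, 32 of 35 members with at least 20 UMIs were above 0, with a median of 0.42, against 49.0% of all genes and a median of -0.01. At least 2-fold higher were 4 members (*Ifit2*, *Oasl1*, *Iigp1* and *Cxcl9*), where 2.05% of genes passed, and 0 were at least 2-fold lower, where 3.61% passed.

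Among these, *Iigp1* rests on the most counts. It was at 164 and 346 CPM from 468 and 1311 UMIs (log2 1.08, 0.92 to 1.23), and seen in 42.2% and 53.0% of endothelial-like cells (23.2% and 29.9% after thinning), against 2.05% and 4.63% of PT-like cells. *Oasl1* had 6.30 and 12.9 CPM (log2 1.04) and *Ifit2* 19.6 and 40.4 CPM (log2 1.04), and without doublets these ratios were 0.88 and 0.74. Without carrying cells that of *Iigp1* was 0.73. *Cxcl9* went from 4 UMIs to 111, but 70 of the 111 came from 1 cell that scored as a doublet and held 95 UMIs of 6 of the 9 macrophage markers. *Rsad2* was 440 and 634 CPM (log2 0.53, 0.43 to 0.62), *Irf7* log2 0.56 (0.33 to 0.81), *Isg15* log2 0.41, and *Irf9* was lower, at log2 -0.26.

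Both kinds of cells within the endothelial-like class had this direction, and sizes differed. The cells with *Plvap* and *Gpihbp1* (127 and 210 cells, a capillary pair of markers) had a summed level of 2730 and 4334 CPM (log2 0.67, 0.60 to 0.73), with *Iigp1* at 209 and 583 CPM (log2 1.48, 1.26 to 1.70) and *Zbp1* at 16.9 and 55.7 CPM (log2 1.72). The cells with *Sox17* and *Igfbp3* (188 and 230 cells) had 2462 and 3020 CPM (log2 0.30, 0.24 to 0.35), with *Iigp1* at 137 and 230 CPM (log2 0.75). The intervals of the summed ratios did not overlap between these kinds. A cluster with endothelial and mural markers together (88 and 97 cells), kept out of the class, had the opposite direction, at 1858 and 1523 CPM (log2 -0.29, -0.36 to -0.22). Carriers made up 29.9% and 29.05% of *Plvap* cells and 18.1% and 30.0% of *Sox17* cells.

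**Figure D4:**
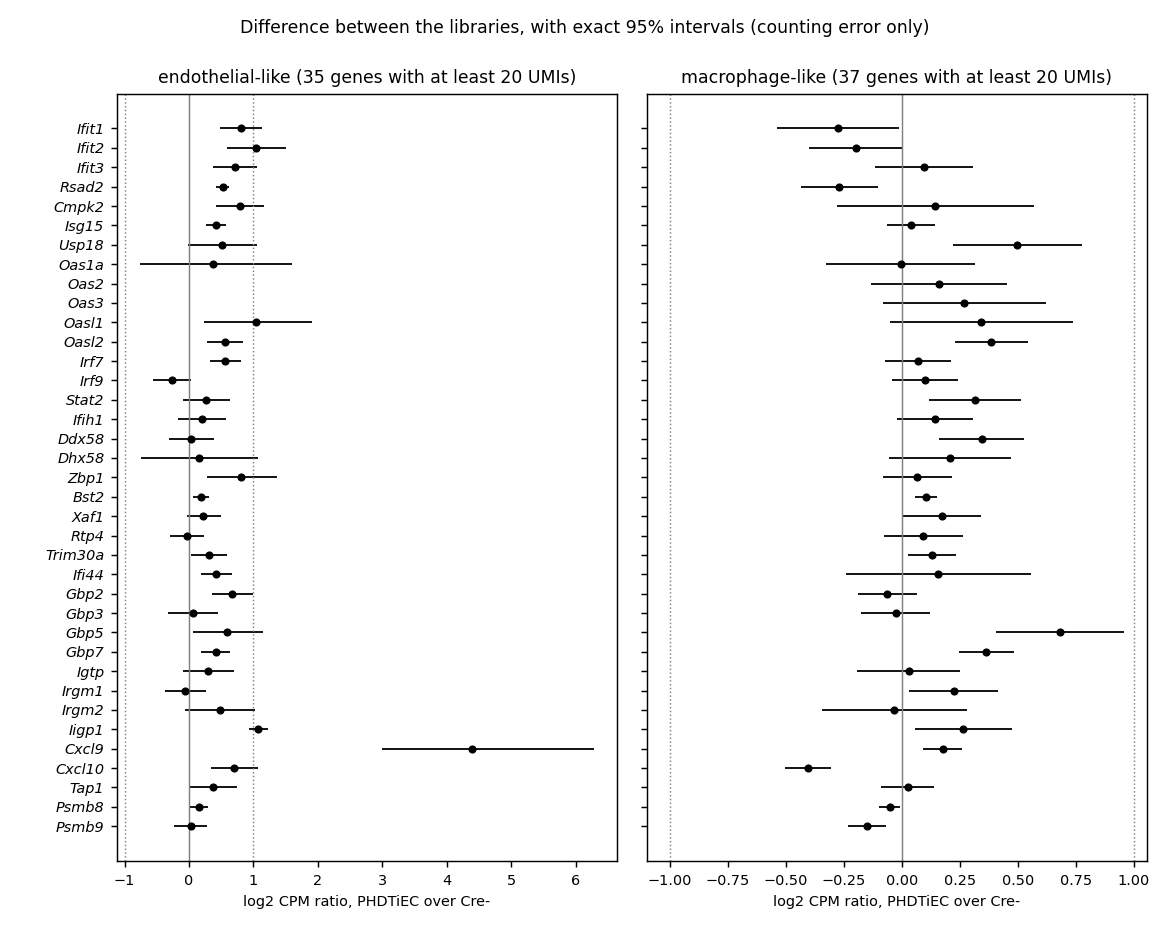
Log2 CPM ratio of the library labelled PHDTiEC over Cre- for the members with at least 20 UMIs in endothelial-like cells (35 genes) and macrophage-like cells (37 genes), with Clopper-Pearson 95% intervals. Most endothelial-like ratios lie above 0 with *Iigp1* at 1.08 and *Cxcl9* at 4.39, while macrophage-like ratios lie close to 0.

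Macrophage-like cells, the most numerous class, hardly differed. The sum was 1521 and 1570 CPM (log2 0.05) and the core 150 and 150 CPM (log2 0.00, -0.06 to 0.07), while the GTPase set was 256 and 287 CPM (log2 0.16). None of the 37 members was 2-fold higher or lower, where 1.09% and 1.64% of genes were. *Cxcl10* was lower, at 74.0 and 55.9 CPM (log2 -0.40, -0.50 to -0.30), and *Gbp5* higher, at 7.27 and 11.6 CPM (log2 0.68). Within the class the core ran in both directions: 90.9 and 135 CPM in cells with *Itgax* and *Ccr2* (log2 0.57), and 143 and 48.2 CPM in cycling cells (log2 -1.57), where 1 Cre- cell gave 32.2% of the core UMIs.

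Monocyte-like cells had the members at 1438 and 1827 CPM (log2 0.35), with a median log2 ratio of 0.58 over 32 members, against -0.02 over all genes. *Ifit1*, *Rsad2*, *Oas2*, *Gbp3* and *Igtp* were at least 2-fold higher, where 2.25% of genes were, and 0 at least 2-fold lower, where 2.97% were. *Rsad2* stood at 12.9 and 43.6 CPM, from 17 and 43 UMIs, with a log2 ratio of 1.76 that was 0.35 with each cell classed by its markers. The monocyte-like cell with most core UMIs scored as a doublet in both libraries, with 20 of 189 and 45 of 264 core UMIs. *Gbp3* stood at 14.4 and 41.6 CPM, from 19 and 41 UMIs.

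Dendritic-like cells had a lower sum in the library labelled PHDTiEC, at 2919 and 2687 CPM (log2 -0.12, -0.17 to -0.07), with 12 of 34 members above 0. The ratio was -0.034 without *Bst2*, *Psmb8* and *Psmb9* and -0.0094 as a mean over cells. The GTPase set, which includes *Cxcl9*, was higher, at 404 and 473 CPM (log2 0.23, 0.10 to 0.36). *Cxcl9* gave 223 and 315 CPM of this sum, so its rise is not a rise of the GTPases. The top cell gave 25.6% and 10.9% of the UMIs of the set. The core was lower, at 243 and 199 CPM (log2 -0.29). *Psmb8* had a log2 ratio of -0.38 there. No member was at least 2-fold higher, where 2.54% of genes were, and *Oasl1* was at least 2-fold lower, at 13.6 and 4.97 CPM, where 1.90% were. T-like cells had nearly equal sums (2132 and 2176 CPM, log2 0.03), as had neutrophil-like cells (1557 and 1581 CPM, log2 0.02). In neutrophil-like cells *Ifih1* was at least 2-fold higher, at 7.79 and 20.7 CPM, where 1.95% of genes were, and *Xaf1*, *Irgm1* and *Irgm2* at least 2-fold lower, where 2.22% were. *Xaf1*, which binds an inhibitor of cell death, stood at 23.4 and 8.11 CPM from 30 and 11 UMIs.

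In the tubule the type I core was higher in the library labelled PHDTiEC in several classes. DCT-like cells had core sums of 48.9 and 142 CPM (log2 1.54, 1.37 to 1.71), TAL-like cells 62.8 and 127 CPM (log2 1.02, 0.90 to 1.14) and injured PT-like cells 68.0 and 118 CPM (log2 0.79). These are low levels beside the 868 and 1263 CPM of endothelial-like cells. In DCT-like cells 7 of 33 members were at least 2-fold higher (*Ifit1*, *Ifit3*, *Rsad2*, *Isg15*, *Ifi44*, *Iigp1* and *Cxcl9*), where 2.22% of genes were, and 0 at least 2-fold lower, where 1.82% were. *Rsad2* had 3.75 and 29.6 CPM (log2 2.98) and *Ifit3* 4.49 and 17.8 CPM (log2 1.99), and the *Ifit1* ratio (log2 2.03) turned to -0.083 without carrying cells.

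In TAL-like cells *Ifit1* (8.21 and 26.7 CPM), *Rsad2* (8.86 and 18.9 CPM) and *Oas1a* were at least 2-fold higher, where 1.78% of genes were, and *Gbp5* at least 2-fold lower, where 1.29% were. The *Rsad2* ratio (log2 1.10) turned to -0.79 with each cell classed by its markers and to -0.051 without carrying cells. In injured PT-like cells 6 of 35 passed upward (*Ifit1*, *Ifit3*, *Rsad2*, *Usp18*, *Oas1a* and *Cxcl9*), where 2.67% of genes did, and 0 downward, where 1.01% did. *Ifit3* stood at 10.7 and 28.4 CPM there (log2 1.42, 1.12 to 1.71), and at log2 0.92 without carrying cells.

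IC-like cells had 7 of 26 members at least 2-fold higher (*Isg15*, *Usp18*, *Oasl2*, *Irf7*, *Trim30a*, *Gbp2* and *Iigp1*), where 2.06% of genes were. *Cxcl10* was at least 2-fold lower, at 72.0 and 28.1 CPM, where 1.98% of genes were. *Irf7* had 8.96 and 35.0 CPM (log2 1.97). With each cell classed by its markers none of these 8 ratios reached 2-fold, *Irf7* stood at log2 0.33, and *Gbp2* and *Iigp1* turned to -0.17 and -0.80. In thin limb-like cells, where *Ifit3* was highest, no member was at least 2-fold higher, where 1.09% of genes were, and *Ifit1* was at least 2-fold lower, at 28.1 and 9.76 CPM, where 1.54% were, though its log2 ratio was -0.99 without doublets. In fibroblast-like cells *Rsad2* (4.64 and 20.1 CPM), *Trim30a* and *Ifi44* were at least 2-fold higher, where 3.87% of genes were, and *Cxcl9* at least 2-fold lower, where 1.43% were. The *Rsad2* ratio was log2 0.24 there without doublets.

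Over the 18 classes, 520 pairs of a member and a class had at least 20 UMIs. Of these 42 (8.08%) were at least 2-fold higher in the library labelled PHDTiEC and 12 (2.31%) at least 2-fold lower, where 2.36% and 1.95% of the same pairs over all genes were. The pairs not named above were *Gbp2* higher and *Cxcl9* lower in PT-like cells, *Stat2* higher in T-like cells, *Ifit3*, *Cxcl10* and *Tap1* higher and *Isg15* lower in pericyte-like cells, and *Isg15* higher and *Ddx58* and *Tap1* lower in urothelial-like cells. Members of 1 class share cells, and these pairs are not independent.

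Single cells carried much of the core in the tubular classes of the library labelled PHDTiEC. In TAL-like cells 1 cell held 497 of 1713 core UMIs (29.01%), and without it the class stood at 90.8 in place of 127 CPM. In DCT-like cells 1 cell held 377 of 1276 (29.5%), and without it the class stood at 101 in place of 142 CPM. Neither cell scored as a doublet, though they held 59807 and 64902 UMIs against class medians of 22067 and 22236. Without these cells both classes stayed above the Cre- level of 62.8 and 48.9 CPM. In injured PT-like cells the top cell held 237 of 1548 (15.3%), and in B-like cells 49 of 51 (96.1%). The top endothelial-like cell held 2.66% and 4.18%, and the top macrophage-like cell 7.81% and 2.62%, so those sums did not rest on 1 cell. Without its top cell, 6 of the 54 pairs past 2-fold came under 2-fold, and 18 did without cells that carried the core.

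**Figure D5:**
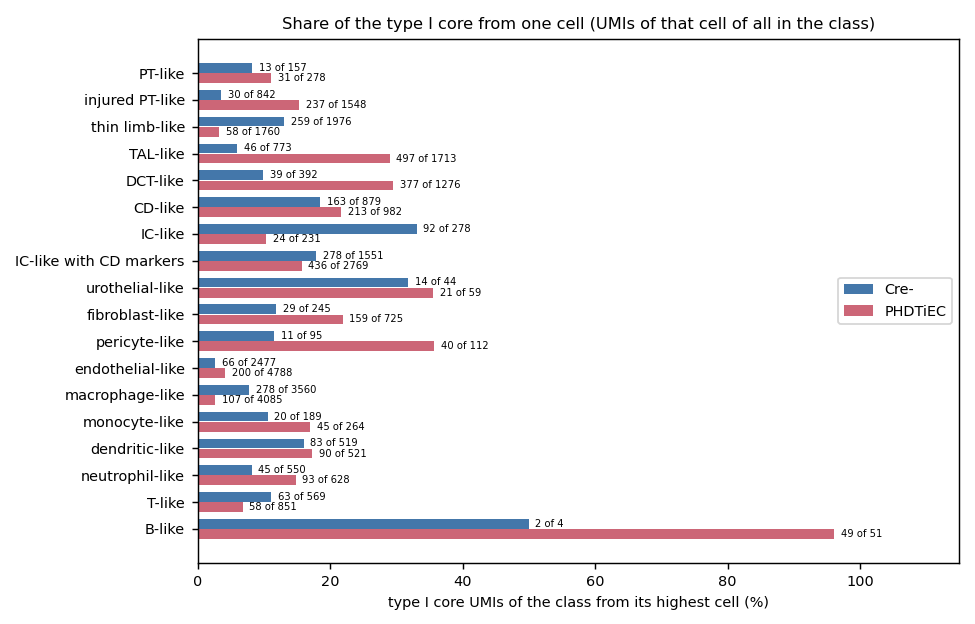
Percent of each class's type I core UMIs that came from the cell with most of them, for each library. The share is 2.66% and 4.18% in endothelial-like cells but 29.01% in TAL-like and 29.5% in DCT-like cells of the library labelled PHDTiEC, and 96.1% in its B-like cells.

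*Cxcl9* was the member most concentrated in few cells. The top 1% of all cells held 93.5% and 91.9% of its UMIs, against 48.9% and 46.6% for *Rsad2*, 33.0% and 34.6% for *Isg15* and 10.6% and 9.7% for *Psmb8*. Its differences in tubular and stromal cells rested largely on single cells, most of which scored as doublets. In endothelial-like cells 1 cell that scored as a doublet held 70 of 111 UMIs. There *Cxcl9* was also higher in cells that did not carry the core, at 1.31 and 7.73 CPM from 3 and 19 UMIs. In DCT-like cells 71 of 80 UMIs in the library labelled PHDTiEC came from 1 such cell, with 119 UMIs of 7 of the 9 macrophage markers. In fibroblast-like cells 179 of 229 Cre- UMIs came from another, which held 3 macrophage marker UMIs. In injured PT-like cells 50 of 55 came from 1 more, and in PT-like cells all 28 Cre- UMIs came from a cell that did not score as one and held 18 UMIs of 4 macrophage markers.

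Upstream of the members, interferon gamma was the ligand with most UMIs. *Ifng* had 176 and 335 UMIs, of which T-like cells held 147 and 247, at 59.3 and 79.6 CPM in 79 and 96 cells. No NK class was named, and NK cells within the T-like class were not told apart. Its main cluster scored 3.40 on the NK list (2 of 6 markers seen) and 2.83 on the T list (10 of 10). Type I and III ligands were almost unseen: *Ifnab* had 1 and 1 UMIs, *Ifnk* 2 and 1, *Ifnz* 2 and 6 and *Ifnl2* 1 and 0, and no other type I ligand had a UMI, which at this depth does not show that they were absent. *Ifnar1* and *Ifnar2*, the chains of the type I receptor, stood at 74.3 and 90.0 CPM and at 190 and 191 CPM in endothelial-like cells. *Ifngr1* and *Ifngr2*, the chains of the gamma receptor, had 104 and 98.9 CPM and 52.5 and 48.5 CPM there, and were highest in monocyte-like cells at 574 and 566 CPM and 120 and 137 CPM.

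Among the signal genes, *Irf1*, a transcription factor, had 147 and 140 CPM in endothelial-like cells. *Socs1*, a feedback inhibitor of JAK kinases, had 30.8 and 53.3 CPM (log2 0.79). No receptor, kinase or signal transcription factor that was measured differed by 2-fold in endothelial-like or macrophage-like cells. Of 47 further induced genes, 6 were at least 2-fold higher in endothelial-like cells of the library labelled PHDTiEC and 0 at least 2-fold lower, where 2.05% and 3.61% of all genes were, while 37 were within 2-fold and 4 had under 20 UMIs. Those with at least 50 UMIs were *Samd9l* at 53.2 and 108 CPM (log2 1.02), *Gbp9* at 22.8 and 48.0 CPM (log2 1.08), *Ccl5* at 18.9 and 72.0 CPM (log2 1.93), *Isg20* at 7.36 and 19.8 CPM (log2 1.43) and *Tgtp2* at 7.01 and 19.3 CPM (log2 1.46). In macrophage-like cells 2 of these 47 were at least 2-fold higher, 0 lower and 44 within 2-fold, where 1.09% of all genes were higher and 1.64% lower. In dendritic-like cells 1 was higher and 4 lower, where 2.54% of all genes were higher and 1.90% lower, and among the 4 was *Ccl5*, a T cell chemokine, at 1161 and 521 CPM (log2 -1.16).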

How the data were processed

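The authors deposited, for each library, a matrix of UMI counts over all barcodes, made with Cell Ranger from Chromium 3′ libraries on the mm10 build per the labels; these counts were not normalized. Barcodes with 500 to 100000 UMIs, at least 200 genes and at most 50% mitochondrial UMIs were kept, holding 118320351 of 136004367 and 132583769 of 146758812 UMIs. Seurat 5.3.0 in R 4.3.3 clustered them (2000 variable genes less 19 interferon genes, 20 principal components, resolution 0.8, 30 clusters). Clusters were named by marker lists, and those whose leading genes went against a name kept a number. Barcodes scored as doublets against simulated ones stayed in, and were left out as an alternative. UMIs were summed per library and class with Python 3.11.15 and SciPy 1.17.1, and edgeR 4.0.16 gave TMM factors for 1 alternative. A size limit of 2-fold with at least 20 UMIs over both libraries stood in for a test. Named were the members with most UMIs in each role, those past 2-fold in a class, pathway genes past 2-fold with at least 50 UMIs, ligands with any UMI, and the 10 genes in no list with the largest ratio in carrying macrophage-like cells (at least 50 UMIs in 10 cells), and other members were added for completeness. Thinning to 2000 UMIs left out 1382 and 1411 shallower cells. The intervals and the 2-fold limit were tested on counts simulated with set folds for endothelial-like and macrophage-like cells. Clustering, doublet scoring, thinning and the carrying rule were not tested in this way. Of per-sample columns, 0 were unmapped. The members and lists were chosen with earlier results of these data known. Leaving out *Rsad2* or the carrying cells was chosen after seeing the data.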

Additional observations from a re-analysis of the deposited data

How the results depend on the processing

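No paired analysis was possible because each genotype has 1 library. With 1 mouse per genotype no setting tests the genotype, and counting intervals omit the spread between mice. Of the 54 pairs of a member and a class past 2-fold, 47 never changed sign, and 574 of 648 recomputed ratios stayed within the counting interval. Where a value moved, the cause was not tested beyond what the setting itself leaves out. The log2 ratio of the summed list over all kept cells (0.12) was 0.10 at a mitochondrial limit of 20%, 0.13 without doublets, 0.088 with CPM over UMIs without mitochondrial genes, 0.092 with TMM, 0.19 without *Bst2*, *Psmb8* and *Psmb9*, and 0.072 without carrying cells. In endothelial-like cells (0.43) it was 0.28 without doublets, 0.38 with each cell classed by its markers, 0.51 without those 3 genes and 0.20 without carrying cells. In dendritic-like cells (-0.12) it was -0.23 by markers, -0.0094 as a mean over cells and -0.034 without the 3 genes. In lymphoid cells (0.08) it was 0.019 by markers, 0.0069 with TMM, 0.28 without the 3 genes and reversed to -0.032 without carrying cells. In macrophages and monocytes (0.06) it was 0.12 as a mean over cells and 0.095 without the 3 genes. In stromal cells (-0.02) it was 0.21 without doublets, -0.13 by markers, -0.18 as a mean over cells, 0.090 without the top cell and -0.28 without carrying cells. In tubular cells (0.14) it was 0.10 at a mitochondrial limit of 20%, 0.18 with the complexity filter, 0.10 without mitochondrial UMIs, 0.11 with TMM, 0.20 without the 3 genes and 0.12 without carrying cells.

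The 42 pairs higher became 14 at a minimum of 100 UMIs and 117 at 1.5-fold, and the 12 lower became 4 and 31. The share of cells carrying the core (2.68% and 3.56%) was 4.40% and 5.62% at 5 per 10000 UMIs, 1.47% and 2.07% at 20, 1.87% and 2.66% after thinning to 2000 UMIs, 1.36% and 2.23% with at least 5 genes, and 1.78% and 2.54% without *Rsad2*. The share carrying the GTPase set (2.45% and 3.32%) was 4.47% and 6.32% at 5, 1.26% and 1.75% at 20, 1.56% and 2.27% after thinning, and 1.28% and 1.86% with at least 5 genes. Reversed single ratios were *Ifit1* in DCT-like cells without carrying cells (-0.083), *Gbp2* in IC-like cells by markers (-0.17) and as a mean over cells (-0.0053), *Iigp1* in IC-like cells by markers (-0.80), *Rsad2* in TAL-like cells by markers (-0.79) and without carrying cells (-0.051), and, by markers in pericyte-like cells, *Ifit3* (-0.062), *Cxcl10* (-0.24) and *Tap1* (-0.082). The class named as highest was the same under every setting for 24 and 20 members in the Cre- and PHDTiEC-labelled libraries.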

Other observations

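A cluster that held endothelial together with mural markers (88 and 97 cells) was left without a class name and entered only the sums and counts over all kept cells. Its core sum was 593 and 515 CPM (log2 -0.20, -0.33 to -0.08), its GTPase sum 279 and 245 CPM (log2 -0.19, -0.37 to -0.01), and *Rsad2* stood at 228 and 199 CPM. The core was carried by 14 (15.9%) and 9 (9.28%) of its cells.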
